A study of Mus musculus with 24 samples.

Results

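Kidneys examined 4 weeks after release of a 7-day ureter obstruction were compared with kidneys of sham-operated mice. The comparison uses 8 of the 24 libraries of the series, 4 titled R4W and 4 titled sham, chosen by title, and all 14785 genes in the deposited table. All animals were male C57/BL6 mice with no genetic modification named, labelled 8 weeks old, and every library was made by polyA selection from kidney, described as cortical in the study's title. R4W animals had a unilateral ureter obstruction (UUO, ligation of one ureter, which blocks the outflow of that kidney) for 7 days, then reimplantation of the ureter and 4 weeks of recovery, while sham animals had sham surgery alone. The other 4 groups, used here only for levels side by side, had 2 days (UUO2) or 7 days (UUO7) of obstruction, or 7 days followed by 1 week (R1W) or 2 weeks (R2W) of recovery. The age label is the same in every group, and the time between sham surgery and collection is not given in the sources used here, so the age of the animals at collection and the operation cannot be told apart. The 4 animals sequenced per group were selected by the authors from a larger number.

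An obstructed ureter raises pressure in the tubules of the kidney. Proximal tubule cells, which take up most of the filtered glucose, phosphate, amino acids and protein and burn fatty acids to do so, lose these functions and switch on injury genes, while leukocytes enter the interstitium and fibroblasts lay down collagen. After release, tubule cells can recover, and the question addressed by the comparison is what remains different once the kidney has drained for 4 weeks.

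Values are FPKM, fragments scaled to transcript length and library depth, a unit inferred from the values. Because FPKM is relative to the whole library, a fall of abundant genes lifts all others. Each gene was therefore tested with limma as deposited and again once a size factor per library, the median over genes of its ratio to the geometric mean, had been divided out (rescaled), at a Benjamini-Hochberg adjusted p under 0.05 over all genes. "Rose" and "fell" are used only of genes that passed in the same direction on both scales. Log2 fold changes are R4W over sham on log2(FPKM + 1) of the deposited values with the SE from limma, n = 4 libraries per group, unless called rescaled. They understate the change of genes near 0. No gene in the table averages less than 1 FPKM across the 24 libraries, so a gene with a sham mean under 1 has a row only because other groups were higher. This was so for 1602 of all genes, against 238 with an R4W mean under 1, and counts of rises in lists rich in such genes follow in part from that.

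On the 2 scales together 4280 genes rose and 1710 fell, 40.5% of the genes tested, with 28.9% rising and 11.6% falling. The deposited scale alone called 66.4% of genes, 8101 higher and 1710 lower, and the rescaled values called 60.1%, 4280 higher and 4600 lower. The scale moved the median gene from 0.30 to -0.01 on the log2 scale, and 178 genes were called in opposite directions by the 2 scales. Among the calls on both scales, 25.2% of all genes were higher and 10% lower with no R4W library inside the range of the sham libraries on either scale. Changes of at least 1 log2 unit on both scales were reached by 1465 genes that rose and 81 that fell. The deposited values alone gave 2101 higher and 81 lower at that size, and the rescaled values 1465 higher and 478 lower. Part of the genes named below are the 15 rises and 15 falls of greatest change among genes averaging 20 FPKM or more whose groups did not overlap, with some gene families left out, so that for those the separation of the groups was fixed by the choice. In the authors' deposited table of the same comparison, 4015 of the 4280 genes that rose here were higher and 1703 of the 1710 that fell were lower at an adjusted p under 0.05. In all, that table had 4512 genes higher and 5083 lower at this threshold, so more falls than rises.

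Every library held the defining genes of kidney cortex at high level, with Slc34a1 of the proximal tubule at 2819, 2548, 2992 and 2698 FPKM in sham and 1562, 1271, 1764 and 1842 FPKM in R4W. The implied depth of the 8 libraries was 29700000 to 35300000 fragments. The 10 most abundant genes held 22.2% to 24.5% of the summed FPKM in sham and 14.8% to 19.4% in R4W. One label conflicts: the library titled R4W 2 carries a treatment label of 2 weeks of recovery, and when it was placed in R2W 3977 genes rose and 1509 fell. Sham 2 stood apart from the other sham libraries in fat, urothelium and leukocyte genes. Without it 4259 genes rose and 1678 fell. R4W 1 and R4W 3 held fat genes, and without these libraries and sham 2 together 3623 genes rose and 1216 fell.

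**Figure D1:**
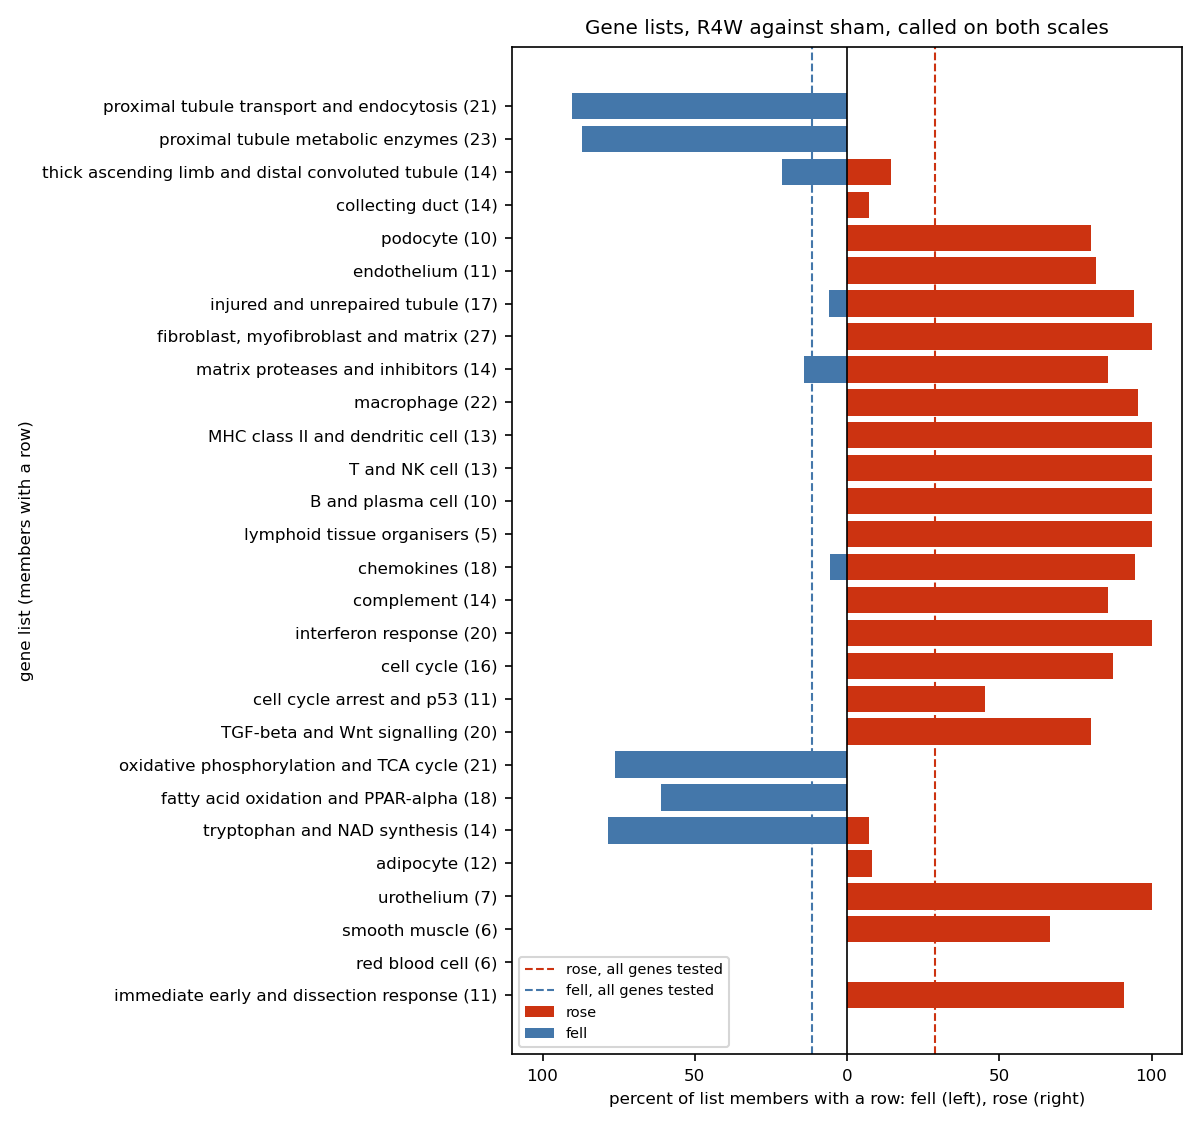
Share of each gene list that rose (right, red) or fell (left, blue) in R4W against sham on both scales, as a percent of the members with a row (number in brackets). The dashed lines mark the shares over all genes tested, 28.9% rising and 11.6% falling. The proximal tubule and mitochondrial lists lie on the left and the leukocyte, matrix and injury lists on the right.

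The proximal tubule had not returned to the sham state. Of 21 transport and endocytosis genes with a row, 19 fell and 0 rose, where 11.6% of all genes fell. Of 23 genes listed as metabolic enzymes, among them Kap, which is not an enzyme, 20 fell and 0 rose. The median log2 fold change was -0.91 for the transport list and -0.77 for the enzyme list, where the median of all genes was 0.30. Rescaled, the medians were -1.29 and -1.15. In bulk tissue, fewer cells of a type and less RNA per cell cannot be told apart.

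Among the transporters, Slc34a1 at chr13:55398187-55415592 encodes the main phosphate transporter of the proximal brush border. Its values are given above for sham 1 to 4 and R4W 1 to 4. Every R4W library lay below every sham library (log2 fold change -0.79 ± 0.21, adjusted p = 0.0026). Slc7a13, a cystine and acidic amino acid transporter of the last proximal segment, was at 439, 296, 431 and 419.6 FPKM in sham and 169.7, 171, 163 and 228 FPKM in R4W. Its groups did not overlap (log2 fold change -1.11 ± 0.27, adjusted p = 0.0012), and R4W 4 was the highest of the R4W libraries. Slc6a19, the neutral amino acid transporter, fell from 74.5 ± 11.3 to 34.4 ± 9.94 FPKM (mean ± SD, n = 4). Slc17a3, an anion transporter, fell from 325 ± 33.3 to 151 ± 17.8 FPKM. Slco1a1 at chr6:141907282-141946962, an organic anion uptake carrier, was at 84.1, 36.6, 96.8 and 97.3 FPKM in sham and 16.2, 26.9, 35.3 and 32 FPKM in R4W. Sham 2 was the lowest sham library for it (log2 fold change -1.44 ± 0.28, adjusted p = 0.00016). The other 2 members were not called on both scales. The organic anion transporter Slc22a8 was at 105 ± 11.3 FPKM in sham and 77.3 ± 12.3 FPKM in R4W (adjusted p = 0.15, and 0.022 rescaled), and the sulfate transporter Slc13a1 was at 95.8 ± 3.01 and 93.1 ± 17 FPKM (adjusted p = 0.79, and 0.051 rescaled).

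Of the 10 coding genes of highest sham mean outside the mitochondrial genome 9 fell and 0 rose, where 11.6% of all genes fell. They were chosen for high sham values, which favours falls. Kap, the androgen-regulated kidney protein of proximal tubules and the gene of highest sham mean in the table, was at 45542, 33378, 41595 and 44852 FPKM in sham and 18580.5, 19964, 20430.4 and 27718 FPKM in R4W. No R4W library reached the lowest sham value (log2 fold change -0.94 ± 0.23, adjusted p = 0.0012). Gpx3, the secreted glutathione peroxidase made by the kidney, was at 10268, 11299.5, 11865 and 10472 FPKM in sham and 5998, 5787, 6783 and 6961 FPKM in R4W (log2 fold change -0.78 ± 0.16, adjusted p = 0.00032). Fxyd2, a regulatory subunit of the sodium pump, fell from 4018 ± 114 to 2742 ± 254 FPKM. Fth1, the ferritin heavy chain, fell from 4965 ± 221 to 3525 ± 256 FPKM, while Ftl1, the light chain, was at 3010 ± 62.7 and 3160.4 ± 342 FPKM and was called lower only on the rescaled values.

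The 15 falls named by the rule come next. Genes outside the rule fell further, 8 of them by at least 1.5 and down to -3.39 on the log2 scale. Aadat at chr8:60505932-60545677, an aminotransferase of tryptophan breakdown, was at 375, 229.7, 356 and 349.8 FPKM in sham and 128, 94.8, 116 and 146 FPKM in R4W. The groups did not overlap, with sham 2 below the other sham libraries (log2 fold change -1.42 ± 0.26, adjusted p = 7.3e-05). Mpv17l at chr16:13903161-13949619, a mitochondrial and peroxisomal membrane protein, was at 313, 189, 309.6 and 275 FPKM in sham and 105, 73.9, 94.7 and 123 FPKM in R4W (log2 fold change -1.44 ± 0.22, adjusted p = 8.9e-06). Hsd11b1, which regenerates active glucocorticoid, was at 156, 68.9, 147 and 163 FPKM in sham and 47.8, 50.7, 48.3 and 54.3 FPKM in R4W. Its R4W libraries spanned a narrow range while sham 2 was less than the other sham libraries (log2 fold change -1.32 ± 0.21, adjusted p = 1.9e-05). Odc1, the first enzyme of polyamine synthesis, fell from 572 ± 143 to 238 ± 49.2 FPKM. Cyp7b1, an oxysterol hydroxylase, fell from 109.9 ± 21.4 to 45.4 ± 7.72 FPKM. Keg1, a glycine acyltransferase, fell from 1399.6 ± 120.1 to 637 ± 150.3 FPKM, the acyl-CoA synthetase Acsm3 from 547 ± 165 to 223 ± 59.4 FPKM, and the glucuronosyltransferase Ugt2b38 from 446 ± 83.2 to 198 ± 45.1 FPKM. Rnf24 at chr2:131298064-131352892, a membrane RING finger protein, had the steepest fall under the naming rule, at 51.7, 22.5, 44.7 and 61 FPKM in sham and 9.14, 21.3, 16.2 and 13.9 FPKM in R4W. Sham 2 and R4W 2 nearly met (log2 fold change -1.48 ± 0.38, adjusted p = 0.0019). Azgp1, Myo5a, Slc22a19, C1qtnf3 and Ehhadh completed the 15, with log2 fold changes of -1.26, -1.18, -1.17, -1.16 and -1.20.

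**Figure D2:**
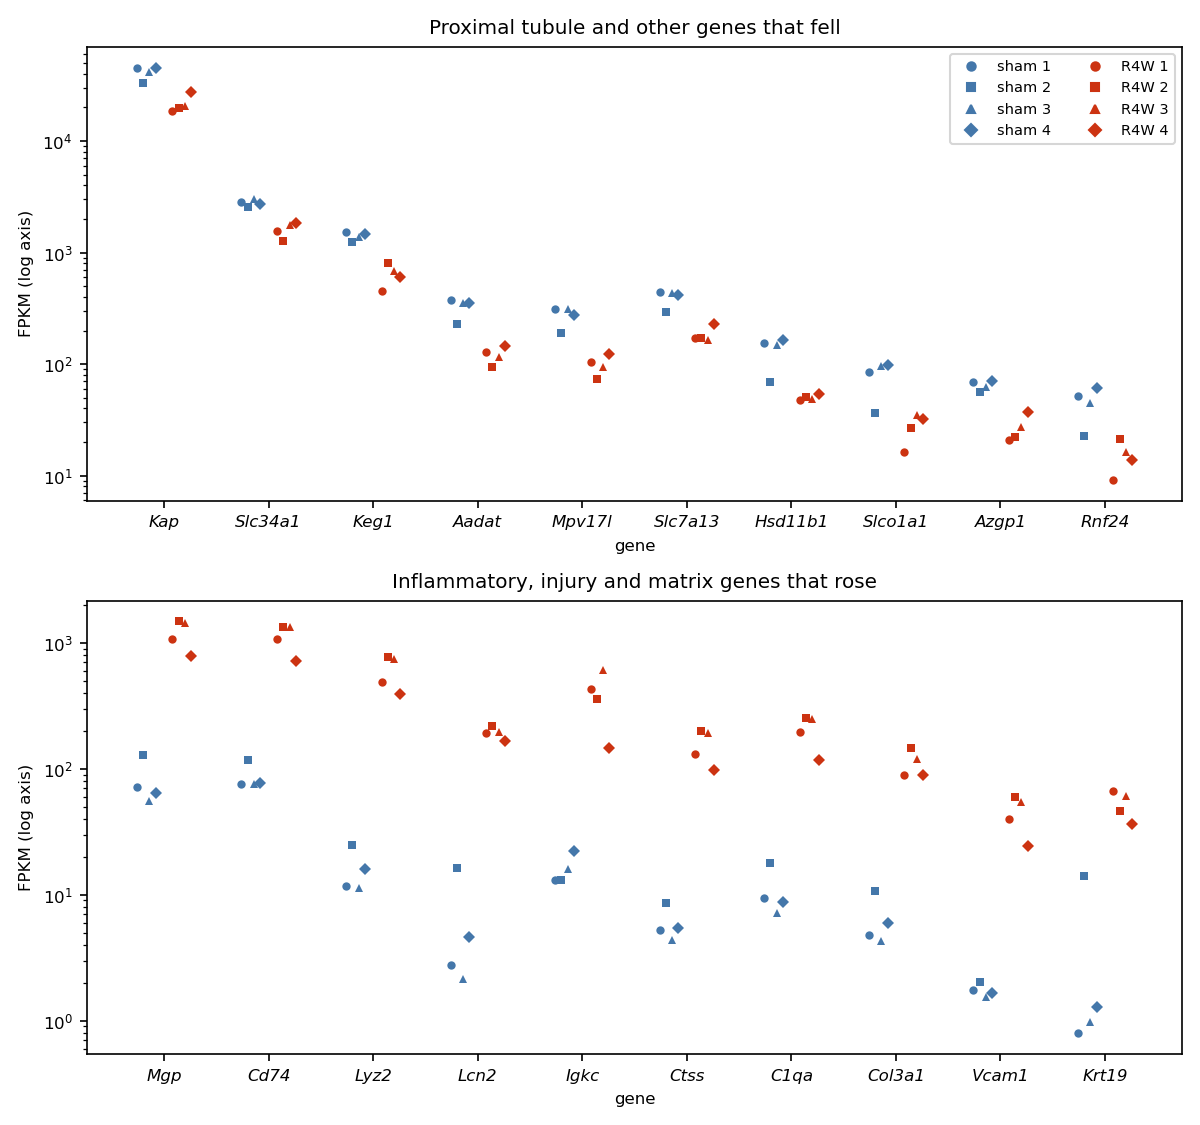
FPKM of 20 genes in each sham (blue) and R4W (red) library on a log axis, with 1 marker shape per library number. Upper panel, genes that fell; lower panel, genes that rose. Most of these genes were chosen among those whose groups did not overlap, so the gap between red and blue is no result. Among the sham libraries sham 2 (blue square) lies nearest to the R4W values for Rnf24, Slco1a1, Hsd11b1, Lcn2 and Krt19.

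Genes of fuel use and energy supply were lower too. Of 21 genes of oxidative phosphorylation and the TCA cycle, in which mitochondria oxidise acetyl-CoA and make ATP, 16 fell and 0 rose, where 11.6% of all genes fell. Atp5b, the catalytic subunit of ATP synthase, was at 2541, 2424, 2443 and 2509 FPKM in sham and 1837, 1726, 1658 and 1883 FPKM in R4W. The groups lay apart by a modest step (log2 fold change -0.48 ± 0.11, adjusted p = 0.0008). Sdhb of complex II fell from 369 ± 22 to 256 ± 16.8 FPKM and the fumarase gene Fh1 from 150 ± 8.47 to 106 ± 7.91 FPKM. Citrate synthase (Cs) was at 89.1 ± 0.523 FPKM in sham and 85.1 ± 7.71 FPKM in R4W, with an adjusted p of 0.36. It was called lower only on the rescaled values (log2 fold change -0.44, adjusted p = 0.00023), as were the other 4 members that did not pass on both scales.

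Of 18 genes of fatty acid oxidation and its regulator PPAR-alpha, 11 fell (61.1%) and 0 rose, where 11.6% of all genes fell. Ehhadh, the bifunctional enzyme of peroxisomal oxidation, was at 385, 313, 346 and 316 FPKM in sham and 138, 173, 118 and 165 FPKM in R4W. All R4W values lay below all sham values (log2 fold change -1.20 ± 0.36, adjusted p = 0.0068), but the call was lost when R4W 1, R4W 3 and sham 2 were left out. Acadm, the medium-chain acyl-CoA dehydrogenase, was at 886, 681, 810.1 and 791 FPKM in sham and 449, 413, 370 and 457 FPKM in R4W (log2 fold change -0.90 ± 0.23, adjusted p = 0.0016). Acot12, an acetyl-CoA thioesterase, fell from 75.4 ± 7.61 to 35.7 ± 2.5 FPKM and Ppara, the receptor, from 9.92 ± 2.51 to 5.41 ± 0.533 FPKM. The Ppara call was also lost without those 3 libraries, and 4 of the 18 genes then fell. Hadhb, of the mitochondrial trifunctional protein, was at 174 ± 14.3 FPKM in sham and 152 ± 18.3 FPKM in R4W and was called lower only on the rescaled values. R4W 3 had the lowest R4W value in 15 of the 18 genes.

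The pathway from tryptophan to NAD, the cofactor of oxidation, followed the same side. Of 14 genes 11 fell, against 11.6% of all genes, among them Aadat above, Acmsd from 47 ± 5.75 to 22.3 ± 1.46 FPKM and Haao from 204 ± 21.5 to 110.1 ± 20.2 FPKM. Haao makes the precursor of quinolinate, and Acmsd draws it away from NAD. The 1 member that rose was Nnmt, which methylates nicotinamide, at 0.45, 1.64, 0.49 and 0.22 FPKM in sham and 7.73, 4.59, 5.18 and 3.46 FPKM in R4W. Its groups did not overlap (log2 fold change 1.90 ± 0.27, adjusted p = 5.8e-06). Nampt, of the salvage route, was at 28.3 ± 0.681 FPKM in sham and 26.4 ± 1.94 FPKM in R4W and was called lower only on the rescaled values.

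The distal segments held changes in both directions. Of 14 genes of the thick ascending limb and distal convoluted tubule 3 fell (21.4%) and 2 rose (14.3%), where 11.6% of all genes fell and 28.9% rose. Of 14 collecting duct genes 1 rose (7.14%) and 0 fell. The median log2 fold change of the collecting duct genes was 0.37, near that of all genes. The difference between segments was not tested. Without R4W 1, R4W 3 and sham 2, 1 limb or distal gene fell and 0 collecting duct genes rose. Egf, the growth factor made in the distal nephron, was at 433, 416, 446 and 429 FPKM in sham and 216, 177, 216 and 299 FPKM in R4W. All R4W libraries were lower (log2 fold change -0.95 ± 0.40, adjusted p = 0.041), although the call was lost when any single library other than R4W 4 was left out, with log2 fold changes of -1.09 to -0.84 over the 8 removals. Pvalb, a calcium buffer of the distal convoluted tubule, fell from 35.1 ± 2.47 to 20.9 ± 1.49 FPKM and its call was lost when any single library other than R4W 3 or sham 4 was left out, with log2 fold changes of -0.76 to -0.70. Cldn16, the tight junction protein for magnesium and calcium, rose from 8.89 ± 0.803 to 18.2 ± 1.1 FPKM and Trpm6, the magnesium channel, from 2.17 ± 0.386 to 4.17 ± 0.39 FPKM. Umod, the glycoprotein of the thick ascending limb, was at 1682 ± 91.6 FPKM in sham and 1733 ± 289 FPKM in R4W (adjusted p = 0.89). Slc12a3, the thiazide-sensitive cotransporter, was at 425 ± 37 and 417 ± 65.5 FPKM. Aqp2, the vasopressin-regulated water channel, was at 159, 529, 143 and 216 FPKM in sham and 673, 237, 449 and 322 FPKM in R4W. Sham 2 exceeded R4W 2, R4W 3 and R4W 4 for Aqp2, and the gene was not called. Atp6v0d2, of the proton pump of intercalated cells, rose from 9.75 ± 0.47 to 16.3 ± 1.71 FPKM (rescaled adjusted p = 0.045), but leaving out any single library other than sham 3 ended its call on both scales, with deposited log2 fold changes of 0.61 to 0.71.

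Genes of injured and unrepaired tubule cells were still high. Of 17 such genes 16 rose and 1 fell, where 28.9% of all genes rose. Of the 17, 3 had a sham mean under 1 FPKM, Cd44 among them. Lcn2 at chr2:32384633-32388252, the iron-siderophore binding protein released by damaged tubules, was at 2.78, 16.1, 2.15 and 4.64 FPKM in sham and 193, 218, 195 and 165 FPKM in R4W. R4W libraries were far above sham, with sham 2 the highest of its group (log2 fold change 5.05 ± 0.40, adjusted p = 3.9e-09). Vcam1 at chr3:116109949-116129688, an adhesion molecule that marks unrepaired proximal cells as well as endothelium, was at 1.76, 2.03, 1.55 and 1.66 FPKM in sham and 40.2, 60.2, 54 and 24.5 FPKM in R4W. Sham values were close together and the R4W libraries wide apart (log2 fold change 3.98 ± 0.23, adjusted p = 3.3e-10). Krt19 at chr11:100140810-100148665, a simple epithelial keratin, was at 0.79, 14.1, 0.98 and 1.28 FPKM in sham and 66.2, 45.9, 60.9 and 36.2 FPKM in R4W (log2 fold change 3.96 ± 0.51, adjusted p = 1.4e-06). Urothelium also expresses Krt19, and its sham 2 value stood above the other sham libraries as the urothelial genes below do. Cd44, the hyaluronan receptor, was at 0.25, 0.41, 0.23 and 0.14 FPKM in sham and 7.19, 10, 9.74 and 4.71 FPKM in R4W (log2 fold change 2.78 ± 0.19, adjusted p = 7.2e-10). Havcr1 (Kim-1), the classic proximal injury marker, named after its values were seen, was at 1.75, 2.35, 1.49 and 2.06 FPKM in sham and 16.8, 19.6, 24.7 and 7.79 FPKM in R4W (log2 fold change 2.55 ± 0.33, adjusted p = 1.4e-06). Itgb6, an epithelial integrin subunit that activates TGF-beta, fell from 22.5 ± 1.43 to 16 ± 1.37 FPKM. Igfbp2, a binding protein of insulin-like growth factors outside the list, was among the steepest rises at 0.41, 30.2, 0.45 and 6 FPKM in sham and 103, 52, 94.2 and 115 FPKM in R4W. Its sham libraries were widely spread (log2 fold change 4.26 ± 0.76, adjusted p = 6.2e-05).

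Of 27 fibroblast, myofibroblast and matrix genes 27 rose, where 28.9% of all genes rose, 5 of them with a sham mean under 1 FPKM, with a median log2 fold change of 2.17 and 1.97 rescaled. Col3a1 at chr1:45311538-45349706, the fibrillar collagen III chain, was at 4.76, 10.7, 4.26 and 5.96 FPKM in sham and 89.7, 145, 119 and 90 FPKM in R4W. The lowest R4W library was well above sham 2 (log2 fold change 3.96 ± 0.27, adjusted p = 7.2e-10). Col1a1 was at 1.8, 3.71, 1.56 and 1.77 FPKM in sham and 37.8, 41.6, 42.1 and 24.2 FPKM in R4W, and Col1a2, its partner in collagen I, rose from 5.83 ± 2.18 to 66.3 ± 13.9 FPKM. Mgp at chr6:136872435-136875823, the matrix Gla protein that restrains calcification, was at 71, 128, 55.5 and 63.6 FPKM in sham and 1068, 1488, 1439 and 786 FPKM in R4W (log2 fold change 3.92 ± 0.30, adjusted p = 2.6e-09). R4W 4 had the lowest R4W value in 21 of the 27 genes.

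Of 14 matrix proteases and inhibitors 12 rose and 2 fell, against 28.9% and 11.6% of all genes, and 6 had a sham mean under 1 FPKM. Mmp7, matrilysin, made by injured epithelium, was at 0.07, 0.17, 0 and 0 FPKM in sham and 14.5, 32.3, 21.4 and 9.24 FPKM in R4W. It was listed at 0 in 2 sham libraries (log2 fold change 4.13 ± 0.41, adjusted p = 4.3e-08). Mmp12, the macrophage elastase, rose from 0.38 ± 0.0762 to 19.2 ± 7.54 FPKM, Mmp2, a gelatinase, from 1.33 ± 0.36 to 28.5 ± 9.34 FPKM and the protease inhibitor Timp1 from 0.838 ± 0.667 to 19.5 ± 7.77 FPKM. Plau, urokinase, fell from 304 ± 68.6 to 219 ± 35.3 FPKM, and Timp3, an inhibitor bound to basement membrane, from 333 ± 25.1 to 256 ± 23.5 FPKM. The Plau call was lost without R4W 1, R4W 3 or sham 4.

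Of 20 TGF-beta and Wnt signalling genes, the pathways that drive fibroblast activation and tubule responses, 16 rose and 0 fell, where 28.9% of all genes rose. Of the 20, 4 had a sham mean under 1 FPKM. Ltbp2, a latent TGF-beta binding protein of elastic fibres, was at 0.18, 0.25, 0.09 and 0.09 FPKM in sham and 6.75, 8.45, 9.36 and 4.68 FPKM in R4W. The groups were far apart (log2 fold change 2.82 ± 0.24, adjusted p = 7.8e-09). Tgfbi, a TGF-beta induced matrix protein, rose from 3.13 ± 1.06 to 25.8 ± 6.57 FPKM and Dkk3, a secreted Wnt modulator, from 2.56 ± 0.249 to 18 ± 2.26 FPKM. Wnt4 was at 0.3, 4.45, 0.34 and 0.56 FPKM in sham and 10.4, 8.07, 9.22 and 7.1 FPKM in R4W, with sham 2 alone near the R4W range. Sfrp1, a Wnt antagonist, was at 25 ± 1.39 FPKM in sham and 38.3 ± 1.47 FPKM in R4W and was called only on the deposited scale.

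Macrophage genes rose together. Of 22 such genes 21 rose and 0 fell, where 28.9% of all genes rose, with a median log2 fold change of 3.06, and R4W 4 had the lowest R4W value in 21. Of the 22, 10 had a sham mean under 1 FPKM. Lyz2 at chr10:117277331-117282321, lysozyme of myeloid cells and the steepest rise of the naming rule, was at 11.7, 25, 11.4 and 15.9 FPKM in sham and 486, 767, 743 and 392 FPKM in R4W. The mean was 37.4 times that of sham (log2 fold change 5.15 ± 0.31, adjusted p = 3.3e-10). C1qa, a chain of the complement component made by tissue macrophages, was at 9.36, 17.9, 7.09 and 8.72 FPKM in sham and 197, 253, 248 and 118 FPKM in R4W (log2 fold change 4.14 ± 0.30, adjusted p = 1.6e-09). C1qc, its partner chain, rose from 8.3 ± 2.93 to 146 ± 44.7 FPKM and Tyrobp, the myeloid signalling adaptor, from 6.79 ± 2.14 to 115 ± 37.6 FPKM. Folr2, the folate receptor of some resident macrophages, was at 4.45 ± 0.966 FPKM in sham and 4.36 ± 0.538 FPKM in R4W, with an adjusted p of 0.96.

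Antigen presentation genes rose. Of 13 MHC class II and dendritic cell genes 13 rose with no overlap of groups, 5 of them with a sham mean under 1 FPKM. Of all genes 28.9% rose, and 25.2% rose without overlap. Cd74, the invariant chain that guards the class II groove, was at 75.5, 117, 75.9 and 76.7 FPKM in sham and 1083, 1341, 1348 and 717 FPKM in R4W (log2 fold change 3.67 ± 0.23, adjusted p = 3.3e-10). Ctss at chr3:95526786-95556403, the cathepsin that trims the invariant chain, was at 5.26, 8.52, 4.33 and 5.45 FPKM in sham and 130.3, 201, 192 and 98.3 FPKM in R4W (log2 fold change 4.48 ± 0.29, adjusted p = 4.2e-10). H2-Aa, the alpha chain of I-A, was at 40.6, 57.6, 37.5 and 42.9 FPKM in sham and 548, 852, 772 and 437 FPKM in R4W, and H2-Eb1, the beta chain of I-E, at 47.8, 67.8, 42 and 46.5 and 643, 899, 855 and 452 FPKM. For all of these R4W 4 was the lowest R4W library and still several times above every sham library.

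Class II genes share a compact promoter that includes a Y box, bound by the factor NF-Y. RefSeq promoters (build GRCm38.p6, 300 bases around the start) matched 11 class II and dendritic cell genes whose promoters could be shown. The Y box core CTGATTGG, searched on both strands, was in 3 of the 11, the promoters of H2-Aa, H2-Eb1 and H2-Oa, and in 4.7% of 27025 symbols with a promoter. They are shown because these genes rose together, 5′ to 3′ on the gene's strand, with the match in capitals: H2-Aa at chr17:34287774-34288073, minus strand, H2-Eb1 at chr17:34305617-34305916, plus strand, and H2-Oa at chr17:34092129-34092428, plus strand.
H2-Aa: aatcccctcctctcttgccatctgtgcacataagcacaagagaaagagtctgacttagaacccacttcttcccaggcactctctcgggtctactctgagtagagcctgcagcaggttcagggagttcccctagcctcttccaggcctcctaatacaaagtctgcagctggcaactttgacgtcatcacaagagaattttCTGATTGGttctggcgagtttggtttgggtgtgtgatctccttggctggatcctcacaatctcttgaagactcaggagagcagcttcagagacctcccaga
H2-Eb1: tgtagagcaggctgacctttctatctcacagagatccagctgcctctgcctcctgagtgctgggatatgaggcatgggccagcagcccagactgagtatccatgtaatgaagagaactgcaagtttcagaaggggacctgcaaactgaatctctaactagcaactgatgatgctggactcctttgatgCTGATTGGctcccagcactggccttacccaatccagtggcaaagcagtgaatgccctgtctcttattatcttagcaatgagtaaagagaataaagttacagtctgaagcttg
H2-Oa: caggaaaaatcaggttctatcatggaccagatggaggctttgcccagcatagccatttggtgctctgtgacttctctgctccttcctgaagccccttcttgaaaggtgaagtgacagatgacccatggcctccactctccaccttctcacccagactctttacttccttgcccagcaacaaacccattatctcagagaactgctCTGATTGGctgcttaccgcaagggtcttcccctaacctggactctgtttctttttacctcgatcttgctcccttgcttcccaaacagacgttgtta
The match lay on the gene's own strand in each, with 43 bases between match and start in H2-Aa, 54 in H2-Eb1 and 38 in H2-Oa. A match describes these letters and not a bound site. Part of the HNF1 site of proximal tubule genes, GTTAATNAT on both strands, was in 1 of 22 promoters of the enzyme list, that of G6pc. It was in 0 of 16 promoters of the transport list and in 0.94% of symbols. G6pc, glucose-6-phosphatase, was at 101 ± 10.8 FPKM in sham and 63.3 ± 16.2 FPKM in R4W and was called lower only on the rescaled values.

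Lymphocyte genes were higher in R4W, to be read beside the 28.9% of all genes that rose. Of 18 T and NK cell genes 13 had a row and rose, but 11 of these had a sham mean under 1 FPKM, so this count was close to fixed by the table's minimum. Cd3g, of the T cell receptor complex, was at 0.5, 0.44, 0.31 and 0.38 FPKM in sham and 6.91, 10, 11.8 and 4.79 FPKM in R4W. No sham library exceeded 1 FPKM (log2 fold change 2.67 ± 0.20, adjusted p = 1.6e-09). Trbc2, the receptor beta constant region, rose from 0.708 ± 0.298 to 15.3 ± 7.51 FPKM, the kinase Lck from 0.468 ± 0.131 to 6.45 ± 2.37 FPKM and the chemokine Ccl5 from 1.76 ± 0.193 to 25.3 ± 8.09 FPKM. Of 17 B and plasma cell genes 10 had a row and rose, 5 of them with a sham mean under 1 FPKM. Igkc at chr6:70726435-70726966, the kappa light chain constant region, was at 13, 13.2, 16 and 22.3 FPKM in sham and 429, 359, 604 and 146 FPKM in R4W. R4W 3 was the highest and R4W 4 the lowest (log2 fold change 4.35 ± 0.33, adjusted p = 2.5e-09). Igha, the constant region of IgA, was at 8.77, 11.3, 9.87 and 11.1 FPKM in sham and 112, 196, 361 and 88.8 FPKM in R4W, and Ighm, that of IgM, rose from 3 ± 1.18 to 49.6 ± 27 FPKM. Jchain, which joins IgA and IgM into polymers, was at 1.28, 1.18, 1.23 and 1.8 FPKM in sham and 21.2, 25.6, 42.9 and 10.7 FPKM in R4W (log2 fold change 3.32 ± 0.28, adjusted p = 7.2e-09). Immunoglobulin segments are near copies of one another, and how the counting divided their reads is not given in the sources used here.

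Of 10 lymphoid tissue organisers, signals that gather lymphocytes, 5 had a row and rose, and 3 of these had a sham mean under 1 FPKM. Ltb, lymphotoxin beta, was at 0.4, 1.01, 0.34 and 0.71 FPKM in sham and 11.8, 17, 16.8 and 7.64 FPKM in R4W (log2 fold change 3.11 ± 0.27, adjusted p = 1e-08). Tnfsf13b (BAFF), a B cell survival factor, rose from 0.95 ± 0.189 to 12.7 ± 4.14 FPKM, and Ccl19 and Ccl21a, which guide T cells and dendritic cells, from 2.28 ± 1.01 to 19.7 ± 4.65 FPKM and from 9.08 ± 3.04 to 43.3 ± 16.9 FPKM. Ccl21a has near-identical copies in the mouse genome, so its value is uncertain. Of 18 chemokines 17 rose, against 28.9% of all genes, and 11 of the 18 had a sham mean under 1 FPKM. Ccl8 was at 0, 2.64, 0.08 and 0.17 FPKM in sham and 32.5, 64, 58.5 and 15.4 FPKM in R4W, with sham 2 the only sham library above 1 FPKM (log2 fold change 4.71 ± 0.44, adjusted p = 2.1e-08). Ccl6 rose from 1.51 ± 0.874 to 43.4 ± 18.1 FPKM, Ccl9 from 0.39 ± 0.0408 to 19.6 ± 8.89 FPKM and the monocyte attractant Ccl2 from 0.745 ± 0.174 to 18.1 ± 6.62 FPKM. Ccl28, an epithelial chemokine, was the member that fell, from 7.28 ± 3.57 to 3.38 ± 1.44 FPKM with overlapping groups, and its call was lost without sham 3 or sham 4 and in a fit of the 2 groups alone.

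Of 14 complement genes 12 rose and 0 fell, where 28.9% of all genes rose, and 2 of the 14 had a sham mean under 1 FPKM. C3 at chr17:57203970-57228136, the central component, was at 2.88, 7.48, 2.13 and 2.69 FPKM in sham and 92.8, 88.3, 106 and 33.2 FPKM in R4W (log2 fold change 4.08 ± 0.33, adjusted p = 4.2e-09). R4W 4 was the lowest R4W library and above every sham value. Serping1, the C1 inhibitor, rose from 21.3 ± 14.4 to 164 ± 25.9 FPKM. Cfb of the alternative pathway was at 197 ± 11.9 FPKM in sham and 163 ± 12.1 FPKM in R4W and was called lower only on the rescaled values. Of 20 interferon response genes 20 rose, with R4W 2 the highest R4W library in 17. The immunoproteasome subunits Psmb8 and Psmb9 rose from 9.97 ± 2.06 to 62.1 ± 14.2 FPKM and from 4.63 ± 0.691 to 26 ± 5.24 FPKM. Oasl2 rose from 4.82 ± 1.49 to 28 ± 4.51 FPKM, and Zbp1, a sensor of nucleic acids, was at 1.13, 1.55, 0.82 and 1.09 FPKM in sham and 9.43, 13.7, 12.4 and 7.01 FPKM in R4W.

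Of 16 cell cycle genes 14 rose and 0 fell, where 28.9% of all genes rose. R4W 4 was the lowest R4W library in 15, and 4 of the 16 had a sham mean under 1 FPKM. Top2a, topoisomerase of dividing cells, was at 0.9, 1.55, 1.48 and 1.3 FPKM in sham and 6.13, 8.01, 7.61 and 3.35 FPKM in R4W (log2 fold change 1.61 ± 0.24, adjusted p = 7.3e-06). Mcm3 of the replication helicase rose from 2.08 ± 0.453 to 8.62 ± 2.32 FPKM and the kinase Cdk1 from 1.62 ± 0.118 to 6.51 ± 1.94 FPKM. Tyms, thymidylate synthase, was at 10.8 ± 0.813 FPKM in sham and 11.9 ± 1.4 FPKM in R4W and was not called. Of 11 genes of cell cycle arrest and p53, 5 rose (45.5%), against 28.9% of all genes. In 3 of the 11 the groups did not overlap, against 5745 of all 14785 genes. Cdkn1a (p21) was at 2.44, 6.53, 2.72 and 3.52 FPKM in sham and 20.8, 20.8, 21.8 and 12.4 FPKM in R4W (log2 fold change 2.10 ± 0.28, adjusted p = 2.6e-06). Plk2 rose from 5.53 ± 0.793 to 11.1 ± 1.06 FPKM, while Mdm2, the p53 ligase, was at 20 ± 0.899 and 23.5 ± 2.3 FPKM and was called higher only on the deposited scale. Cdkn2b (p15) was at 0.83, 5.9, 0.99 and 2.06 FPKM in sham and 7.24, 7.08, 7.69 and 6.41 FPKM in R4W and rose, its groups apart as deposited and overlapping once rescaled. Btg2, an antiproliferative gene, was at 5.94, 17.5, 5.58 and 7.02 FPKM in sham and 51.8, 62, 24.4 and 16.3 FPKM in R4W and rose although sham 2 exceeded R4W 4.

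Podocyte and endothelial genes were higher as well. Of 10 genes of podocytes, the cells that wrap the glomerular capillaries, 8 rose, where 28.9% of all genes rose. Synpo, an actin organiser of foot processes, was at 8.84, 10.1, 8.62 and 7.71 FPKM in sham and 29.1, 30, 37.9 and 24.9 FPKM in R4W (log2 fold change 1.67 ± 0.14, adjusted p = 8.7e-09). Wt1, the podocyte transcription factor, rose from 2.06 ± 0.462 to 7.53 ± 1.79 FPKM and the phosphatase Ptpro from 2.48 ± 0.364 to 9.57 ± 2.18 FPKM. R4W 3 was the highest R4W library for all 10. Of 11 endothelial genes 9 rose, among them Plvap, of fenestrated vessels, from 46.2 ± 17.2 to 111 ± 16.4 FPKM and Pecam1 from 12.9 ± 4.04 to 31.8 ± 2.82 FPKM. Vegfa, the endothelial growth factor made by tubules and podocytes, was at 148 ± 6.43 FPKM in sham and 127 ± 7.36 FPKM in R4W and was called lower only on the rescaled values.

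Levels in the other groups place these values, as descriptions without a test. Slc7a13 was at 34 ± 12.7 FPKM in UUO7, 139 ± 51 in R1W and 172 ± 53.7 in R2W, against 183 ± 30.2 in R4W and 396 ± 67.5 in sham. Havcr1 went from 473 ± 42.6 FPKM in UUO7 through 125 ± 27.2 and 62.2 ± 32.2 to 17.2 ± 7.08 FPKM in R4W. Lcn2 was at 887 ± 157 FPKM in UUO7, and Col1a1 at 84.3 ± 8.66 FPKM there against 36.4 ± 8.4 in R4W. These lay between UUO7 and sham. The mean of Lyz2 went from 367 ± 56.7 FPKM in UUO7 through 574 ± 119.9 after 1 week and 724 ± 306 after 2 weeks to 597 ± 187 FPKM in R4W. The immunoglobulin genes had their highest group mean in R4W. Igkc was at 48.6 ± 15.9 FPKM in UUO7, 99.8 ± 25.4 in R1W and 92.6 ± 27.2 in R2W against 384 ± 189.7 in R4W, and Jchain at 3.4 ± 1.23, 8.59 ± 1.43, 7.64 ± 2.36 and 25.1 ± 13.4 FPKM. The spread between R4W libraries was wide for both.

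**Figure D3:**
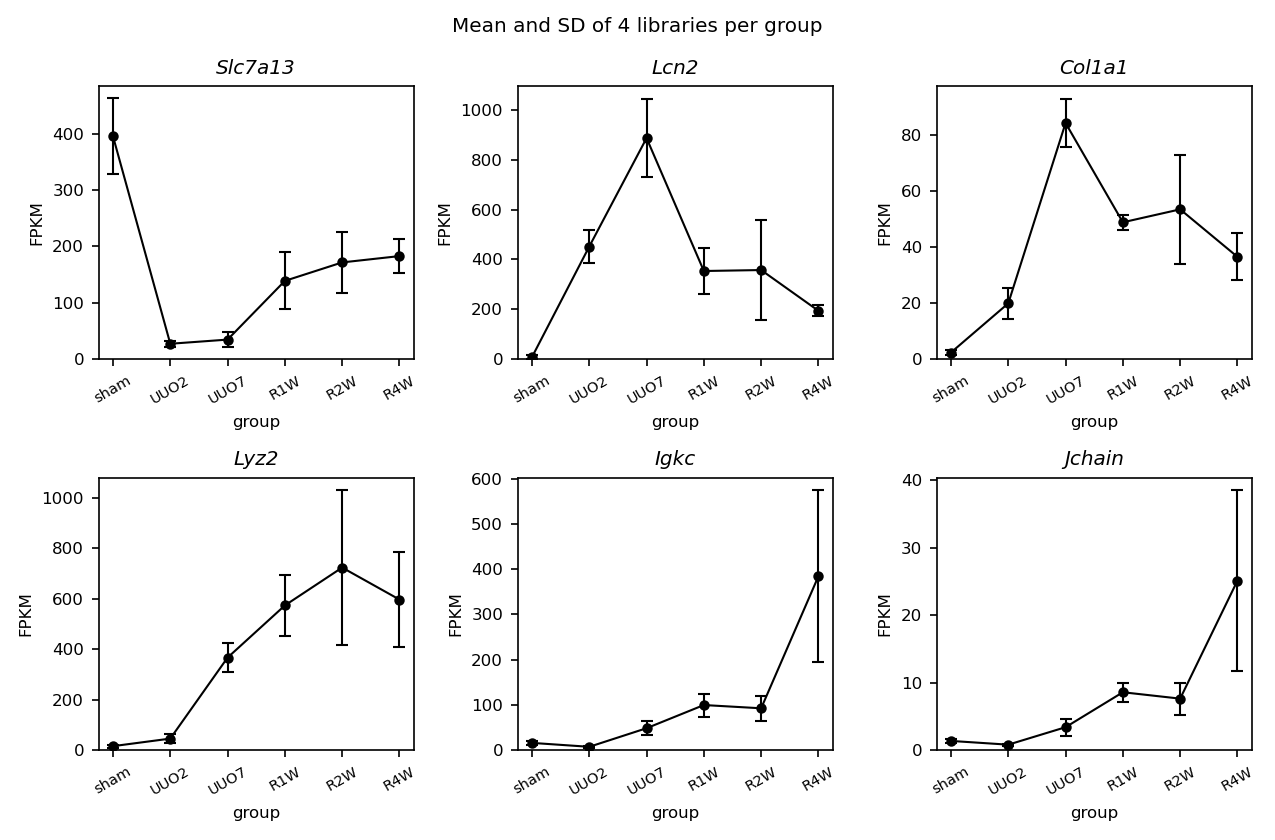
Mean FPKM (points) and SD (bars) of 4 libraries in each of the 6 groups for 6 genes, on linear axes from 0. Slc7a13 is partly back towards sham in R4W, Lcn2 and Col1a1 have come down from UUO7, Lyz2 stays high, and Igkc and Jchain have their highest mean in R4W with the widest bar.

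Fat genes followed single libraries. Of 12 adipocyte genes 1 rose (8.33%), Pparg, which the kidney also expresses, and 0 fell, where 28.9% of all genes rose and 11.6% fell. The Pparg call was lost in a fit of the 2 groups alone. The summed level was 97.1, 417, 97 and 102 FPKM in sham 1 to 4 and 2312, 82, 551 and 107 FPKM in R4W 1 to 4. With R4W 2, R4W 4 or sham 2 left out 8, 8 or 9 of the 12 rose. R4W 1 was the highest R4W library in 12 of 12 genes, R4W 3 and sham 2 were also high, and the other 5 libraries were near 100 FPKM or lower. Cfd, adipsin, a defining fat gene, was at 0.17, 91.8, 0.08 and 0.04 FPKM in sham and 616, 0.83, 191 and 0.08 FPKM in R4W, so it was near 0 in the libraries outside those 3. Fabp4, of fat and endothelium, was at 44.6, 171, 39.7 and 48 FPKM in sham and 819, 61, 161 and 69.4 FPKM in R4W. When R4W 1, R4W 3 and sham 2 were left out, 6 of 118 called genes chosen for the text lost their call (Atp6v0d2, Egf, Ehhadh, Plau, Ppara and Pvalb) and 0 changed direction. The log2 fold changes of these 6 were then 0.76, -0.92, -1.04, -0.32, -0.74 and -0.77, against 0.68, -0.95, -1.20, -0.46, -0.74 and -0.72 with all libraries.

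Of 7 urothelial genes, the lining of the pelvis and ureter, 7 rose, also when any 1 library was left out, where 28.9% of all genes rose. Their summed level was 1.74, 40.4, 2.62 and 3.19 FPKM in sham and 162, 50.3, 119 and 87.3 FPKM in R4W. All R4W libraries were higher, and sham 2 stood near the lowest of them. Upk3a, a uroplakin of the surface plaque, was at 0.29, 10.2, 0.45 and 0.81 FPKM in sham and 34.2, 10.9, 32.8 and 19 FPKM in R4W (log2 fold change 3.21 ± 0.60, adjusted p = 9.9e-05). Upk1b, Krt5 and Upk1a had log2 fold changes of 3.09 ± 0.51, 3.04 ± 0.50 and 2.94 ± 0.42. The part of pelvis or ureter tissue in the epithelial keratin values was not tested. Of 3 neutrophil genes with a row, all with a sham mean under 1 FPKM, 3 rose, with a summed level of 1.2, 0.99, 1.37 and 1.53 FPKM in sham and 7.77, 11.3, 15.8 and 5.69 FPKM in R4W, and 1 of 3 without R4W 1, R4W 3 and sham 2. Of 6 red blood cell genes 0 were called, with Hbb-bs at 207 ± 63.8 FPKM in sham and 219 ± 47.8 in R4W. Of 6 smooth muscle genes, 2 of them with a sham mean under 1 FPKM, 4 rose, led by Des from 2.51 ± 0.856 to 11.1 ± 1.17 FPKM. Star, the only adrenal cortex gene with a row, rose from 0.915 ± 0.0772 to 1.64 ± 0.0519 FPKM, and no defining skeletal muscle gene had a row apart from Pvalb, which marks the distal tubule here.

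Of 11 immediate early genes, which respond within minutes to stimuli and to dissection, 10 rose, where 28.9% of all genes rose. The groups did not overlap in 3 of the 11, against 5745 of all 14785 genes. Their summed level was 91.6, 167, 93.5 and 116 FPKM in sham and 544, 664, 256 and 169 FPKM in R4W. R4W 1 and R4W 2 were high and R4W 4 was close to sham 2. With R4W 2 placed in R2W, 6 of the 11 rose. Egr1 was at 3.39, 5.31, 3.96 and 4.71 FPKM in sham and 42.5, 62.4, 14 and 7.09 FPKM in R4W, and Nr4a1 at 1.41, 3.22, 1.04 and 1.08 and 21.8, 46.1, 3.88 and 2.6 FPKM with overlapping groups. The Nr4a1 call was lost in a fit of the 2 groups alone and with R4W 2 placed in R2W. Atf3 rose from 0.873 ± 0.443 to 7.96 ± 3.49 FPKM and Junb from 14.8 ± 7.14 to 70.7 ± 36.1 FPKM. Dusp1 was at 18.6 ± 6.2 FPKM in sham and 50 ± 32.5 FPKM in R4W and was called only on the deposited scale. Btg2, counted both here and with the arrest and p53 genes, was likewise highest in R4W 1 and R4W 2. The part of tissue handling in these genes was not tested.

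**Figure D4:**
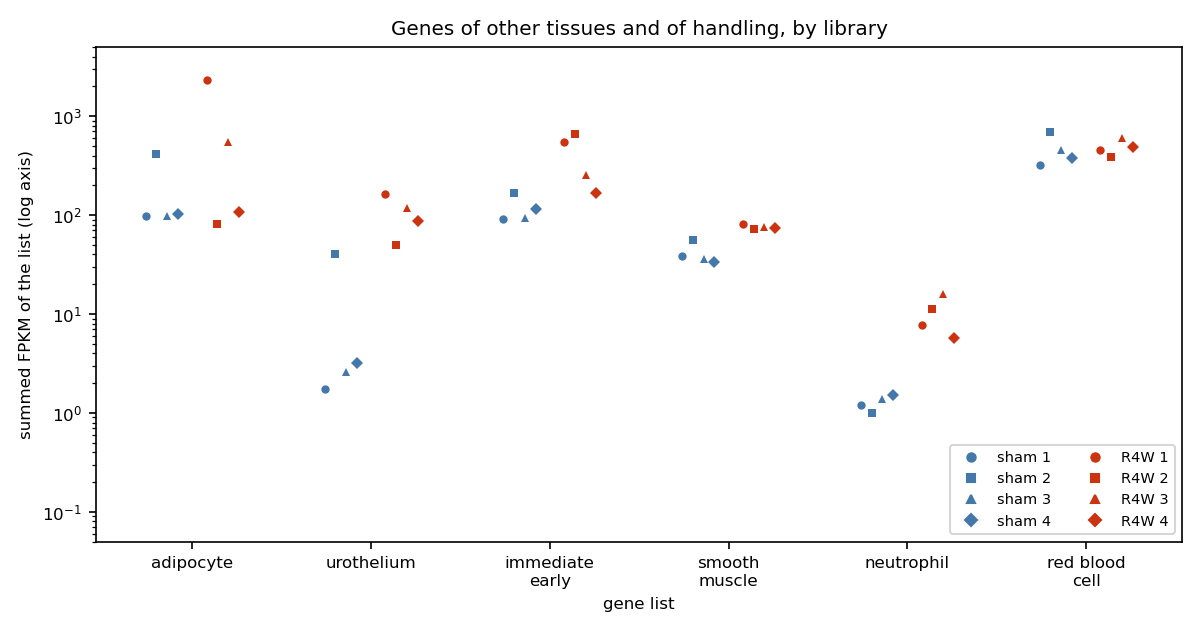
Summed FPKM of 6 marker lists in each sham (blue) and R4W (red) library on a log axis. The adipocyte sum is high in R4W 1, R4W 3 and sham 2, the urothelial sum is high in sham 2 among the sham libraries, the immediate early sum is highest in R4W 1 and R4W 2, and the red blood cell sums of the 2 groups overlap.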

How the data were processed

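Kidney RNA of 24 mice in 6 groups of 4 was sequenced from polyA libraries. The submitters' processing notes name FastQC, Bowtie2, RSEM, DESeq2 and the mm10 build, with no versions or order. The values the authors deposited were read as FPKM, a unit inferred from the values and not stated in the sources used here. The table also holds the authors' log2 fold changes and adjusted p-values for R4W over sham, used here only for comparison. Every gene in it had a mean of at least 1 over the 24 libraries, so genes below that were not analysed here.

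Libraries were grouped by title. For each gene log2(FPKM + 1) was fitted with limma 3.58.1 (trend, R 4.3.3) over all 24 libraries, which share one estimate of the spread, with no covariate, and R4W was contrasted with sham. The same fit was made after median-ratio rescaling. P-values were adjusted over all 14785 genes by the Benjamini-Hochberg method. The p-values set the difference between R4W and sham against the spread between animals within groups, estimated over all 24 libraries. The fit was tested on simulated data. Tables were made with Python 3.11.15, numpy 2.4.6 and pandas 2.3.3. Depth was estimated from the size of single-fragment steps in low FPKM values.

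Gene lists held 457 genes in 31 lists, 410 with a row. Members that have no row were not analysed here. The comparison and the lists were chosen with earlier results of these data known. Promoters on chromosome 18 were not used. Genes named are the 15 rises and 15 falls of greatest change called on both scales, averaging 20 FPKM or more in the libraries compared, and groups that did not overlap on either scale, leaving out mitochondrial, ribosomal protein, Gm, Rik and immunoglobulin variable genes. From each list they are also up to 4 called members of greatest change, up to 3 against the majority and up to 3 of highest mean not called. The 10 coding genes of highest sham mean completed the rule. Some genes that met the rule are not reported here. Alternatives were other pseudocounts, a filter on mean, other fits and thresholds, the replicate number as a block, the conflicting label, and leaving out libraries.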

Additional observations from a re-analysis of the deposited data

Results flagged for a closer look

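In groups of 4 libraries, a value was singled out where its gap to the nearest other library as a share of the group's range exceeded Dixon's 95% critical value. Chance gives this in about 1 in 20 groups, and 46 of 336 groups of named genes and list sums met it. Of these, 32 came from sham 2.

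Sham 2 lay above the other sham libraries in genes of fat (Fabp4 at 170.7 FPKM, Cfd at 91.8), urothelium (Upk3a at 10.2, Upk1b at 6.93, Krt5 at 3.79, Upk1a at 8.97) and epithelium (Krt19 at 14.1, Wnt4 at 4.45). It was also above them in leukocyte and complement genes (Ccl8 at 2.64 FPKM, C3 at 7.48, C1qc at 12.7, Tyrobp at 9.98, Cd74 at 117, Serping1 at 42.8), in Pecam1 at 18.9, Col1a1 at 3.71 and Col1a2 at 9.06, and in Btg2 at 17.5 and Nr4a1 at 3.22. It lay below them in the proximal tubule genes Aadat at 229.7 FPKM, Hsd11b1 at 68.9, Slc22a19 at 59.6 and Slc7a13 at 296.

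Summed FPKM in sham 2 was above the other sham libraries for the adipocyte (417), urothelium (40.4), injured tubule (1255), fibroblast and matrix (460.3), macrophage (372), MHC class II (328), interferon (380.5), arrest and p53 (205) and TGF-beta and Wnt (162) lists. Sham 4 was low in the podocyte sum at 59.8 FPKM and high in Jchain at 1.80, and sham 1 was high in Csf3r at 0.41.

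Among R4W libraries, R4W 4 was above the others in Cyp7b1 at 56.9 FPKM, Slc7a13 at 228, Atp6v0d2 at 18.8 and Acmsd at 24.4, and below them in Folr2 at 3.55 and Cdkn1a at 12.4. R4W 3 was high in Ptpro at 12.8 FPKM and low in the fatty acid oxidation sum at 1838. R4W 2 was high in Plk2 at 12.7 FPKM, and R4W 1 in Cs at 96.6 and Fabp4 at 819.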

How the results depend on the processing

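Of the 5990 genes called on both scales, 0 were called in the opposite direction under any alternative run. Testing only genes that averaged 10 FPKM or more left 5213 calls on deposited values, 5001 rescaled and 3003 on both, of 7747 genes tested. The calls on both scales were then 1693 higher and 1310 lower, and 33.9% of the rescaled calls were higher, against 48.2% over all genes. Requiring 1 log2 unit left 2182, 1943 and 1546. Leaving out 1 library gave 5429 to 5999 calls on both scales, 9044 to 9758 deposited and 8118 to 8891 rescaled. Once the group mean of each gene was subtracted, the deviations of same-numbered sham and R4W libraries had correlations of -0.302 to -0.0829. By these deviations 0 of 4 sham libraries correlated best with their own number, so the numbers were not taken as pairs. The sham and R4W libraries themselves had correlations of 0.908 to 0.962 with one another. With the replicate number as a block 5933 genes were called on both scales, 4250 higher and 1683 lower, with 9715 deposited and 8823 rescaled.

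Genes that changed sign were ones not called on both scales, and the cause was not tested. Rescaled, Umod was at -0.35, Tyms at -0.23, Mdm2 at -0.14 and Hbb-bs at -0.27 on the log2 scale. With R4W 2 placed in R2W, Umod was at -0.021 and Slc12a3 at 0.058. Without R4W 1, R4W 3 and sham 2, Slc13a1 was at 0.0099. Leaving out single libraries gave log2 fold changes of -0.1748 to 0.0064 for Slc13a1, -0.041 to 0.1502 for Umod, -0.1272 to 0.058 for Slc12a3, -0.1392 to 0.065 for Folr2 and -0.049 to 0.285 for Hbb-bs. Depth limits genes near 0 FPKM, where 1 fragment is a large step.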

Other observations

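Gene families chosen after the values were seen add values to the lists, to be read beside the 28.9% of all genes that rose and the 11.6% that fell. Of 13 protein-coding mitochondrial genes 11 fell and 0 rose, and the mitochondrial share of summed FPKM was 14.0% to 14.6% in sham and 9.68% to 12.1% in R4W. Of 286 solute carriers, the membrane transporters of nutrients and ions, 105 fell and 50 rose. Of 35 cytochrome P450 genes 13 fell and 7 rose, and of 14 glucuronosyltransferases 6 fell and 0 rose.

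Of other families, 11 of 12 keratins, 19 of 27 collagens, 8 of 11 annexins, 8 of 10 S100 genes and 7 of 13 cathepsins rose, with 0 falling in each. Of 14 claudins, the tight junction proteins, 9 rose and 2 fell. Of 83 cytosolic ribosomal protein genes 22 rose and 2 fell, and the 26.5% that rose is near the share over all genes. On the deposited scale 79 of the 83 were called and on the rescaled values 25.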
